A study of Homo sapiens with 3 samples.

Results

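CDCP1, MYO10, PITPNC1, SRGAP1 and ITPRID2 (formerly SSFA2) code for proteins of invasion and motility, and the study gives them as genes raised by the transcription factor Fra-1 whose promoters contact a remote region bound by Fra-1. Every p300/CBP peak whose centre lay in one of the 5 gene bodies, or within 100 kb of one of the transcription start sites (TSS), was taken. This gave 104 of the 82901 peaks listed for cells given a control siRNA (siCTL) and 30 of the 39320 peaks listed for cells given siRNAs against Fra-1 (siFra-1). A further 12 siCTL and 6 siFra-1 peaks lay outside these loci but in a region contacted by one of the 5 promoters, and they are described with those regions.

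Fra-1, the product of FOSL1, is a Fos family protein that binds DNA as a dimer with a Jun protein, mostly at the AP-1 motif TGAGTCA or TGACTCA. Many of its sites are enhancers, where p300 and CBP, related enzymes that acetylate lysines, are recruited by bound transcription factors and modify histones. CDCP1 is a transmembrane glycoprotein phosphorylated by Src family kinases that lowers cell adhesion. MYO10 is an unconventional myosin that travels to the tips of filopodia. SRGAP1 is a GTPase activating protein that acts downstream of the Slit receptor Robo. PITPNC1 is a phosphatidylinositol transfer protein with a role in secretion from the Golgi, and ITPRID2 binds inositol trisphosphate receptors and actin.

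MDA-MB-231, a human cell line derived from a triple-negative breast cancer, received 4.5 nM of a control siRNA or of a mixture of 3 siRNAs against Fra-1 and was fixed for 7 min at 72 h. Chromatin was then immunoprecipitated with 1 antibody that recognizes both p300 and CBP. Of the 3 samples, 2 are represented by a list of peak positions on hg19 and the third, input DNA, is not analysed here. Replicate immunoprecipitations had been pooled into 1 library per condition, so the differences below have no replicate spread to be compared with, and no p-value is given. Intervals are 95% intervals over peaks, which cover counting error alone and treat neighbouring peaks as independent. The lists hold positions and no height, score or read number. The depth is therefore unknown, width is the one measure of a peak, and a site missing from a list may still carry signal below the threshold. Neither the amount of Fra-1 nor the RNA of the 5 genes is measured by these files.

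Over the whole lists the siFra-1 to siCTL ratio of peak numbers was 0.474 (Clopper-Pearson interval 0.469 to 0.480). It was 0.398 for peaks of 100 bp, the smallest width, 0.577 for peaks of 150 to 200 bp and 1.64 (1.57 to 1.71) for peaks of 250 bp and over. Counts of sharing, width, motifs and peak number at the 5 genes are therefore set beside the same counts over the lists or over all 20163 protein-coding genes.

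Sites that the results below turn on are shown first, because each joins a wide peak, or a peak in a Fra-1-bound contacted region, with an AP-1 motif. The letters are the hg19 plus strand read from the GRCh37 assembly, up to 300 bases centred on the peak, and capitals mark the AP-1 motif. Distances are from the TSS of the named gene to the peak centre, negative upstream of the gene. At CDCP1, on the minus strand, 4 siCTL peaks and 1 siFra-1 peak are shown, of which the first 3 lie in introns of CDCP1 and the last 2 between genes.
CDCP1 at 40.4 kb, chr3:45147352-45147651, siCTL peak of 300 bp: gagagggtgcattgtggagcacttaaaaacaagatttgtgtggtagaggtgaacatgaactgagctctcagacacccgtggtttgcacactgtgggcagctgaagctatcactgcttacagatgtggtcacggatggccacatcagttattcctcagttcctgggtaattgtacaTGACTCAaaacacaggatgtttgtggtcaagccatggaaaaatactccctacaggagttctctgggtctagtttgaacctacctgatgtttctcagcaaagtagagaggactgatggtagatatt
CDCP1 at 21.8 kb, chr3:45165927-45166226, siCTL peak of 350 bp: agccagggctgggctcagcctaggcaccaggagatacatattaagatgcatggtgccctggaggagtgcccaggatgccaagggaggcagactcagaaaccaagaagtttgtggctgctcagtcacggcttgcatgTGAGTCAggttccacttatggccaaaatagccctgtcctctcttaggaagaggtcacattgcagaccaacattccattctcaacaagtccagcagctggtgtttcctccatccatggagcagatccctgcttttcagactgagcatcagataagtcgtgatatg
CDCP1 at 12.4 kb, chr3:45175377-45175676, siCTL peak of 550 bp: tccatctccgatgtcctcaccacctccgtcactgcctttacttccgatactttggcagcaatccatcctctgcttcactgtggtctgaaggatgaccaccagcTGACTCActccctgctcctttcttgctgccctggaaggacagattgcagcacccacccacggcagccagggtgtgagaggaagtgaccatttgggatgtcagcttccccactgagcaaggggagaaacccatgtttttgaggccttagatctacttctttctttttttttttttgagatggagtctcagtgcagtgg
CDCP1 at -20.8 kb, chr3:45208552-45208851, siCTL peak of 300 bp: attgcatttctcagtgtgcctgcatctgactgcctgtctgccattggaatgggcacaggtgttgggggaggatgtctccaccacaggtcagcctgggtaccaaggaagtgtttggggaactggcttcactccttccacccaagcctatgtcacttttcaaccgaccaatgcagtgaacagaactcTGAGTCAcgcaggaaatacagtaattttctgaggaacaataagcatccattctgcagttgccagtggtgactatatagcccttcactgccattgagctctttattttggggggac
CDCP1 at -53.7 kb, chr3:45241477-45241776, siFra-1 peak of 450 bp: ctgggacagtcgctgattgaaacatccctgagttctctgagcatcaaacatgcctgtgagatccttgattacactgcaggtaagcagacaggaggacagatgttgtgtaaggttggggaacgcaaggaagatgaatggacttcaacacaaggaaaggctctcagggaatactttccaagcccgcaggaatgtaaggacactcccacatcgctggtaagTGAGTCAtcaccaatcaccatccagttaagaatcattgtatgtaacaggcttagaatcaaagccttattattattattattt

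At PITPNC1 and ITPRID2 1 site each is shown. The PITPNC1 site lies in an intron of that gene, and the ITPRID2 site lies between genes in the Fra-1-bound region contacted by its promoter.
PITPNC1 at 44.8 kb, chr17:65418027-65418326, siCTL peak of 350 bp: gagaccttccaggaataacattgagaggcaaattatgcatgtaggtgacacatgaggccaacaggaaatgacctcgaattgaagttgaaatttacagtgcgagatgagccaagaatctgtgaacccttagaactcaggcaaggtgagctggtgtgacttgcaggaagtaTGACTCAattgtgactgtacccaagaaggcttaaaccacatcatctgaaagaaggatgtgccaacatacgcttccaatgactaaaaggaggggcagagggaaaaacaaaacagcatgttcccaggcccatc
ITPRID2 at -100.3 kb, chr2:182656052-182656351, siCTL peak of 400 bp: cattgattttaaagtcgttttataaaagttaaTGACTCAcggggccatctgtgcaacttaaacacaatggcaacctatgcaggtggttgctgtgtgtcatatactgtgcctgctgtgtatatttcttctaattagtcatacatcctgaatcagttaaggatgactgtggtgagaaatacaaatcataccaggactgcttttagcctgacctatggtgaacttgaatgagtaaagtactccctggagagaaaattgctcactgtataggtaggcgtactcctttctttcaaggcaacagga

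Fewer peaks were listed in siFra-1 than in siCTL at each of the 5 genes. CDCP1 had 33 siCTL peaks against 14 in siFra-1, for a ratio of 0.424 (0.210 to 0.815). MYO10 had 30 and 6, a ratio of 0.20 (0.0681 to 0.488). PITPNC1 had 23 and 4, a ratio of 0.174 (0.0437 to 0.509). SRGAP1 had 12 and 4, a ratio of 0.333 (0.0784 to 1.10), and ITPRID2 had 6 and 2, a ratio of 0.333 (0.0329 to 1.86), so the intervals of these last genes reached 1. Fewer siFra-1 than siCTL peaks were also listed at 86.7% of the 19325 protein-coding genes with a peak, so the direction at 5 of 5 genes is that of most genes. A siFra-1 number of at most 0.5 times the siCTL number was met by the 4 genes with 10 or more siCTL peaks, CDCP1, MYO10, PITPNC1 and SRGAP1, and by 66.4% of the 6824 protein-coding genes with that many.

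Summed over the 5 loci the ratio was 0.288 (0.185 to 0.437), and the upper bound lay below the 0.474 of the whole lists. It also lay below the 0.458 summed over all protein-coding genes. That sum counts a peak near several genes once for each, so no interval is given for it. The genes and rules were chosen with earlier results of these data known, so the comparison is not an independent one. Without CDCP1, which holds the most peaks, the ratio at the loci was 0.225 (0.122 to 0.392). Without MYO10 it was 0.324 (0.196 to 0.520) and without PITPNC1 0.321 (0.198 to 0.505). The upper bound then passed 0.474, so its place below the whole lists depended on single genes. At all 5 loci together the covered length went from 14250 bp in siCTL to 5950 bp in siFra-1, a ratio of 0.418. The difference in number varied with width. At 100 bp siCTL had 75 peaks and siFra-1 17, with a ratio of 0.227 (0.125 to 0.388). At 150 to 200 bp the numbers were 20 and 5. At 250 bp and over they were 9 and 8, a ratio of 0.889 (0.298 to 2.60), which cannot be told from either 1 or the 1.64 of the whole lists. Peaks of 250 bp and over covered 3650 bp in siCTL and 3400 bp in siFra-1.

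**Figure D1:**
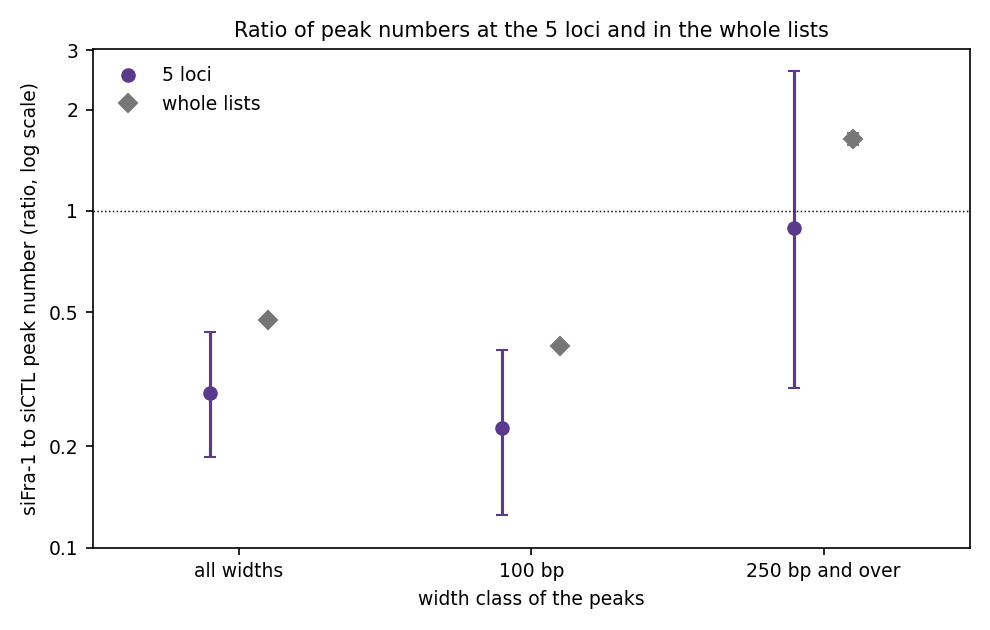
Ratio of siFra-1 to siCTL peak numbers (log scale) for all peaks, peaks of 100 bp and peaks of 250 bp and over, at the 5 loci (circles) and in the whole lists (diamonds), with bars for 95% Clopper-Pearson intervals. At the loci the ratio was 0.288 for all widths, 0.227 at 100 bp and 0.889 at 250 bp and over, where the interval spans 1.

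**Figure D2:**
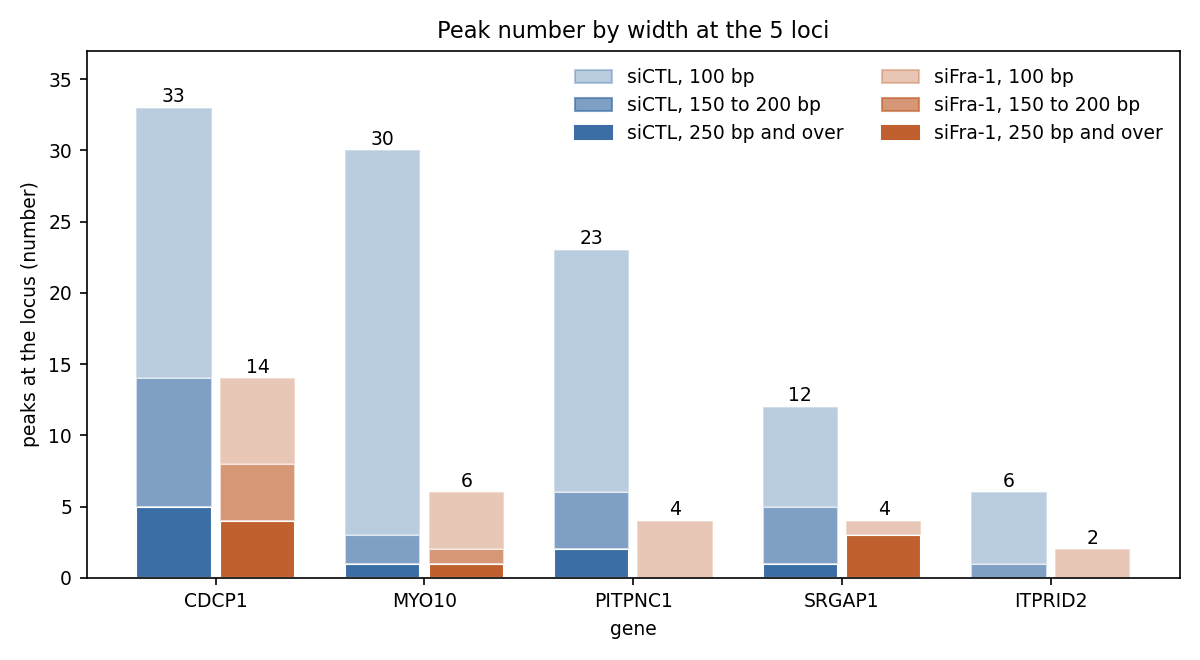
Number of p300/CBP peaks at each of the 5 loci, with blue bars for siCTL and orange bars for siFra-1, darker shades for wider peaks and the total above each bar. The siFra-1 bar is the shorter one at all 5 genes, and at PITPNC1 and ITPRID2 it holds peaks of 100 bp alone.

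The loci differ in length, so density was compared per 100 kb. In siCTL the order was CDCP1 with 16.5 peaks per 100 kb, MYO10 with 8.02, PITPNC1 with 5.48, ITPRID2 with 3.00 and SRGAP1 with 2.87. In siFra-1 CDCP1 again came first with 7.00 peaks per 100 kb, followed by MYO10 with 1.60, and the other three lay between 0.952 and 1.00. CDCP1 was thus the densest of the 5 loci in both conditions, while neighbours below MYO10 rest on 2 to 4 siFra-1 peaks each and were not ordered.

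Of the siCTL peaks, 92 of 104 (88.5%) lay more than 20 kb from the TSS, as did 26 of 30 (86.7%) siFra-1 peaks. The loci themselves have 87.6% of their length beyond that distance, so these shares say nothing beyond the rule that chose the peaks. The gene bodies of the 5 genes, 63.0% of the length, held 54 siCTL peaks (51.9%) and 15 siFra-1 peaks (50%), of which 3 siCTL peaks had their centre in an exon. Of the rest, 45 siCTL and 14 siFra-1 peaks lay between genes. In 3 kb centred on the TSS, SRGAP1 had 1 siCTL peak, of 100 bp at 1.0 kb, and the other four promoters had none in either list. Among all protein-coding promoters 15.6% held a siCTL peak and 8.94% a siFra-1 peak, so 1 of 5 and 0 of 5 say little about these genes.

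**Figure D3:**
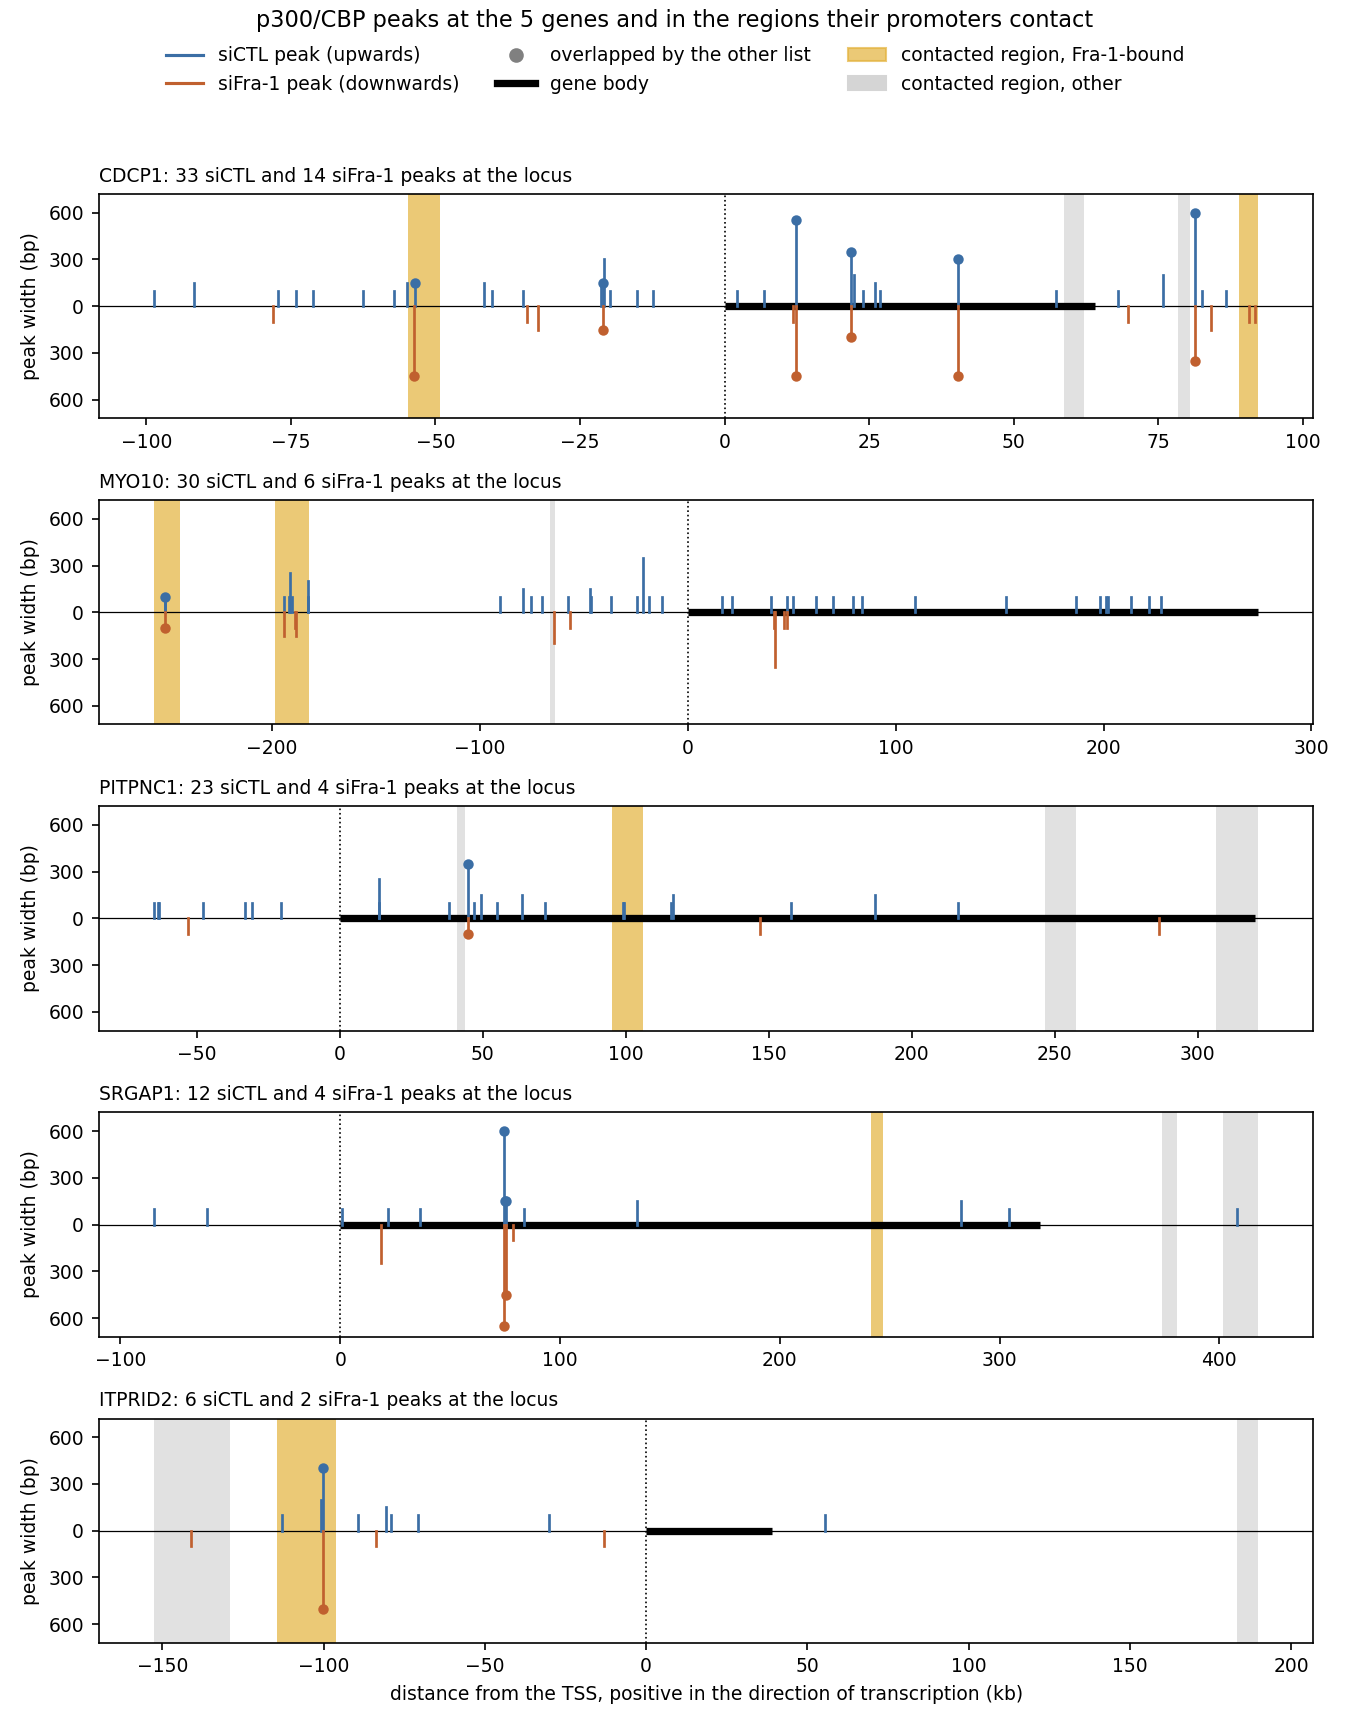
Peaks along the 5 loci, with the distance from the TSS in kb on the horizontal axis and peak width in bp on the vertical axis, siCTL upwards in blue and siFra-1 downwards in orange. Dots mark peaks overlapped by the other list, thick lines the gene bodies, and shaded bands the contacted regions, where gold bands are Fra-1-bound. Dots are most frequent at CDCP1 and SRGAP1, and the wide peaks of MYO10 stand without a partner.

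CDCP1 (chr3:45123769-45187914, minus strand) kept peaks in both conditions at its widest sites. Its 5 siCTL peaks of 250 bp and over were 600, 300, 350, 550 and 300 bp wide, and 4 of them were overlapped by a siFra-1 peak. The widest siCTL peak of the locus lay at 81.3 kb, between genes (chr3:45106352-45106951), and was 600 bp wide in siCTL and 350 bp in siFra-1. It held no AP-1 motif and 2 copies of the TEAD motif GGAATG or CATTCC. In the introns, the site at 12.4 kb (chr3:45175252-45175801) was 550 bp wide in siCTL and 450 bp in siFra-1, and the site at 21.8 kb (chr3:45165902-45166251) was 350 bp and 200 bp. The site at 40.4 kb went the other way, with 300 bp in siCTL and 450 bp in siFra-1. All 3 intronic sites held the AP-1 motif shown above inside both the siCTL and the siFra-1 peak, so widths at sites with a motif differed in both directions.

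Upstream of CDCP1 a pair of neighbouring sites differed. The 300 bp siCTL peak at -20.8 kb, which holds an AP-1 motif, had no siFra-1 peak on it. Its neighbour at -21.1 kb (chr3:45208952-45209101) was 150 bp wide in both lists and lies 100 bp away. At -53.6 kb, in a Fra-1-bound contacted region, a siCTL peak of 150 bp (chr3:45241402-45241551) lay inside a siFra-1 peak of 450 bp (chr3:45241402-45241851). The AP-1 motif of this site lay in the part that was called in siFra-1 alone. Of the 33 siCTL peaks 27 had no overlap. Their median distance from the nearest siFra-1 peak was 4.0 kb, against 20.1 kb for all siCTL peaks without overlap. Such distances are shorter where siFra-1 peaks are denser, and CDCP1 held the most per 100 kb of the 5 loci, 7.00. The locus also holds the TSS of TMEM158, so its peaks cannot be given to CDCP1 with certainty.

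MYO10 (chr5:16662016-16936397, minus strand) shared no peak between the conditions. Of its 30 siCTL peaks 27 were 100 bp wide, and of its 6 siFra-1 peaks 4 were. The widest siCTL peak, of 350 bp at -21.7 kb between genes (chr5:16957952-16958301), lay 34.5 kb from the nearest siFra-1 peak and held none of the 3 motifs searched (AP-1, TEAD and RUNX). The widest siFra-1 peak was also 350 bp wide but lay in an intron at 41.8 kb (chr5:16894452-16894801), 1.60 kb from the nearest siCTL peak. More than 10 kb from any siFra-1 peak lay 23 of the 30, with a median of 28.9 kb, against 66.5% and a median of 20.1 kb for all siCTL peaks without overlap. The 6 siFra-1 peaks were 0.1 to 5.65 kb from a siCTL peak. Their median was 1.275 kb, against 6.25 kb for all siFra-1 peaks without overlap. Such distances depend on density, and the locus held 8.02 siCTL and 1.60 siFra-1 peaks per 100 kb.

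SRGAP1 (chr12:64237541-64555997, plus strand) was the one gene with more wide peaks in siFra-1. It had 1 siCTL peak and 3 siFra-1 peaks of 250 bp and over. Its widest peaks in both lists were an intronic pair at 74.4 kb, 600 bp in siCTL (chr12:64311652-64312251) and 650 bp in siFra-1 (chr12:64311702-64312351), without an AP-1 motif. Next to it, siCTL peaks of 150 bp at 75.1 and 75.3 kb were both overlapped by 1 siFra-1 peak of 450 bp. That siFra-1 peak held an AP-1 motif, which neither of these siCTL peaks held in full. The third wide siFra-1 peak, of 250 bp at 18.7 kb (chr12:64256152-64256401), had its nearest siCTL peak 2.85 kb away. Covered length at SRGAP1 was 1900 bp in siCTL and 1450 bp in siFra-1, a ratio of 0.763, the highest of the 5 genes, which ranged from 0.138 at PITPNC1. With 12 and 4 peaks these values rest on few sites, and the locus also holds the TSS of RXYLT1.

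PITPNC1 (chr17:65373397-65693372, plus strand) had the lowest ratio of the 5 genes, and its 4 siFra-1 peaks were all 100 bp wide. Its 2 wide siCTL peaks were intronic. The one at 44.8 kb (chr17:65418002-65418351) was 350 bp wide and held an AP-1 motif. The overlapping siFra-1 peak (chr17:65418202-65418301) was 100 bp wide and began 6 bp after the first base of that motif. The other, of 250 bp at 13.8 kb (chr17:65387052-65387301), lay 30.9 kb from the nearest siFra-1 peak and held none of the 3 motifs searched. No siFra-1 peak of 150 bp or more was listed at this locus, against 6 in siCTL. Of 22 unshared siCTL peaks 17 were more than 10 kb from any siFra-1 peak, and over the 5 loci 53 of 94 were, against the 66.5% of the whole list. The locus also holds the TSS of PSMD12.

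ITPRID2 (chr2:182756457-182795465, plus strand) had 6 siCTL peaks, of 100 bp except for 1 of 150 bp, and 2 siFra-1 peaks of 100 bp, none of them in the gene body or shared. The 150 bp siCTL peak at -80.8 kb (chr2:182675602-182675751) held an AP-1 motif at position 182675698. The study also assayed Fra-1 by ChIP-qPCR near this place, but the primers did not both match the assembly, so that amplicon was not placed. The wide peaks near ITPRID2 lay just beyond 100 kb, in the contacted region described below. The locus also holds the TSS of PPP1R1C, and with counts of 6 and 2 no difference in number was detectable.

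Sharing of sites between the conditions was about as frequent as in the lists at large. At the 5 loci 10 of 104 siCTL peaks (9.62%, Wilson interval 5.31% to 16.8%) shared at least 1 bp with a siFra-1 peak, against 9.56% of all siCTL peaks, and 9 of 30 siFra-1 peaks (30.0%, 16.7% to 47.9%) shared with siCTL, against 19.1%. Sharing followed width. Of the 100 bp siCTL peaks 0 of 75 were overlapped, which allows a share of up to 4.0% by the limit of 3 counts and 4.87% by the Wilson interval, against 3.79% in the whole list. At 150 to 200 bp it was 4 of 20 against 21.7%, and at 250 bp and over 6 of 9 (66.7%, 35.4% to 87.9%) against 85.0%. In siFra-1 the corresponding counts were 1 of 17 against 6.56%, 2 of 5 against 28.1% and 6 of 8 (75.0%, 40.9% to 92.9%) against 68.2%. The interval of the difference between the loci and the rest of the list spanned 0 in each of these classes, from -49.7 to 2.92 percentage points for the wide siCTL peaks. Of the 10 overlapped siCTL peaks 6 were at CDCP1, 3 at SRGAP1 and 1 at PITPNC1.

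Widths of the overlapping peaks differed in both directions. Of the 10 pairs the siFra-1 peak was wider in 5, narrower in 4 and equal in 1, with a median difference of 25 bp. The SRGAP1 siCTL peaks at 75.1 and 75.3 kb share 1 siFra-1 peak of 450 bp, which thus supplies 2 of the 5 wider pairs. Over all 7925 pairs siFra-1 was wider in 56.4% and narrower in 22.6%, with a median difference of 50 bp. Among the 6 pairs with a siCTL peak of at least 250 bp, siFra-1 was narrower in 4, at CDCP1 (81.3, 21.8 and 12.4 kb) and PITPNC1 (44.8 kb), and wider in 2, at CDCP1 (40.4 kb) and SRGAP1 (74.4 kb). The median difference there was -125 bp, while over all 3107 such pairs it was 50 bp and siFra-1 was narrower in 37.7%. With 6 pairs the share of wider peaks was 33.3% (9.68% to 70.0%), an interval that holds the 50.5% of all such pairs. At genes, a peak of 250 bp and over was listed for 4 of the 5, and siFra-1 had fewer at CDCP1 (4 against 5) and PITPNC1 (0 against 2), as many at MYO10 (1 each) and more at SRGAP1 (3 against 1). Among the 6726 protein-coding genes with such a peak, siFra-1 had fewer at 22.5%.

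**Figure D4:**
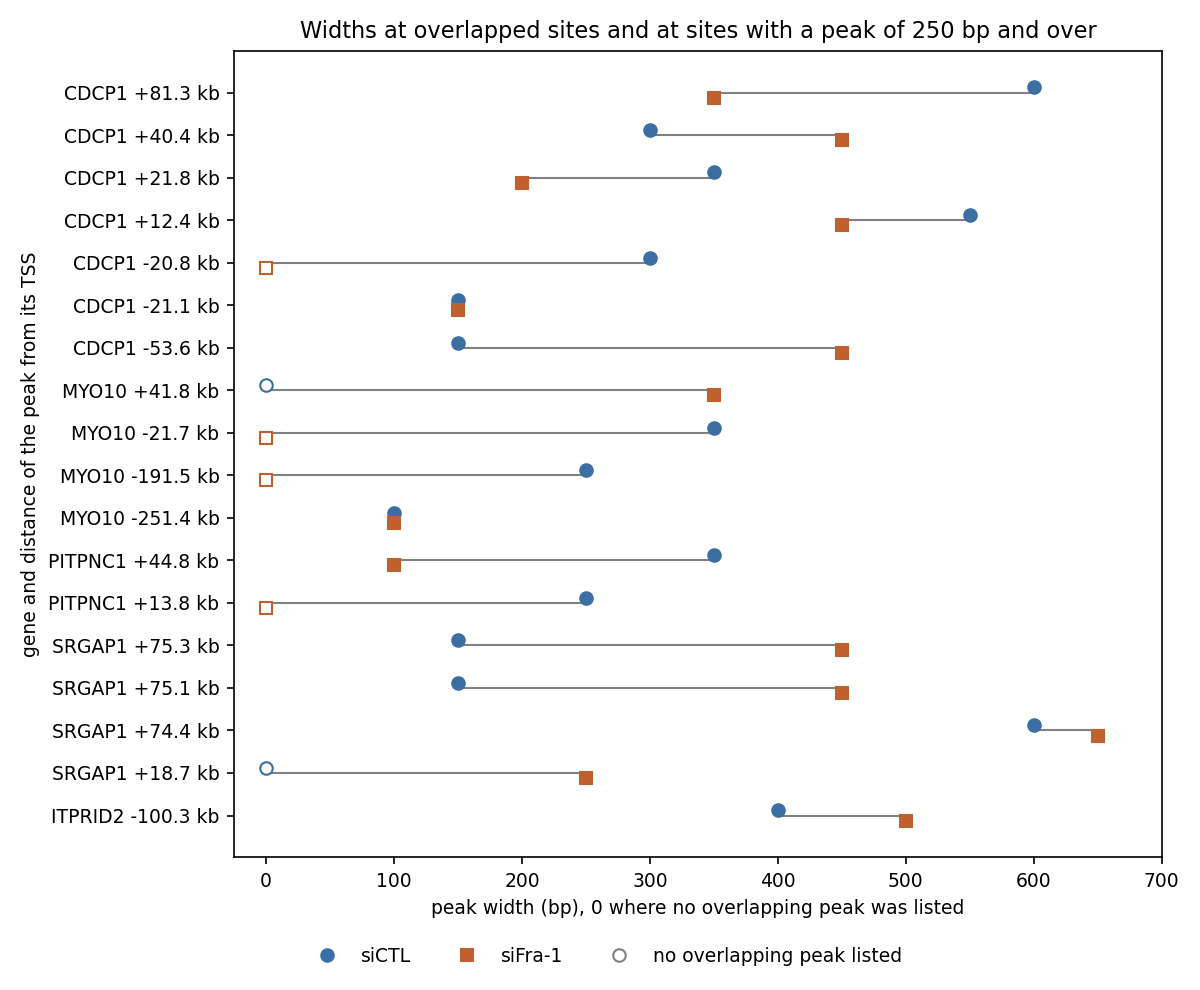
Widths in bp of siCTL (circles) and siFra-1 (squares) peaks at sites of the 5 genes with an overlap or with a peak of 250 bp and over, by distance from the TSS, with open symbols at 0 where no overlapping peak was listed. The siFra-1 symbol lies left of the siCTL symbol at CDCP1 81.3, 21.8 and 12.4 kb and at PITPNC1 44.8 kb, and right of it at CDCP1 40.4 and -53.6 kb, at the SRGAP1 pairs and at ITPRID2 -100.3 kb.

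The AP-1 motif was searched on both strands as TGAGTCA or TGACTCA, which are reverse complements of each other, in 200 bp centred on the peak. At the loci 9 of 104 siCTL peaks held it (8.65%, 4.62% to 15.6%), and 8 of 30 in siFra-1 did (26.7%, 14.2% to 44.4%). The shares over the whole lists were 6.15% in siCTL and 9.08% in siFra-1. The loci differed from the rest of the list by 2.51 percentage points in siCTL (Newcombe interval -1.53 to 9.49, and 0.776 to 14.9 with the looser motif TGANTCA) and by 17.6 points in siFra-1 (5.12 to 35.4). Peaks of 250 bp and over, which hold the motif more often, made up 8 of the 30 siFra-1 peaks at the loci and 5989 of 39320 in the list. Among them the share with a motif was 4 of 8, against 22.9% in the whole list, with a difference of 27.1 points (-1.37 to 55.6). In siCTL it was 5 of 9 at that width, against 31.9%. Of the 8 siFra-1 peaks with a motif in the window 4 were at CDCP1, 2 at PITPNC1 and 1 each at MYO10 and SRGAP1. The MYO10 peak with a motif, of 200 bp (chr5:17000502-17000701), lay in a contacted region not given as Fra-1-bound. These matches describe the letters in the windows and do not show that Fra-1 was bound.

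Motifs of other factors were described in the same windows. The TEAD motif GGAATG or CATTCC was found at 10 of 104 siCTL peaks (9.62%) and 4 of 30 siFra-1 peaks (13.3%), against 13.2% and 17.4% over the whole lists. The RUNX motif TGTGGT or ACCACA was found at 21 of 104 siCTL peaks (20.2%, 13.6% to 28.9%), against 15.6% in the whole list. In siFra-1 it was found at 12 of 30 (40.0%, 24.6% to 57.7%), against 17.6%. The siFra-1 difference from the rest of the list was 22.4 percentage points (6.98 to 40.1) for RUNX and -4.10 points (-12.1 to 12.2) for TEAD. Among siFra-1 peaks of 250 bp and over RUNX was found at 4 of 8, against 26.7%, a difference of 23.3 points (-5.15 to 51.8). At 100 bp it was 6 of 17, against 15.4%, a difference of 19.9 points (1.93 to 43.3). In siCTL it was 5 of 9 at 250 bp and over, against 24.2%, a difference of 31.5 points (2.55 to 57.1). Some named sites held RUNX and AP-1 motifs together, such as the CDCP1 intronic sites at 40.4 and 12.4 kb and the ITPRID2 site at -100.3 kb. The CDCP1 site at 21.8 kb and the siFra-1 peak at -53.7 kb held an AP-1 motif without a RUNX motif. Peaks with both motifs were not counted over the lists, so these examples have no background.

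The 5 promoters contact 17 regions, of which the study marks 7 as Fra-1-bound, and their positions were taken from its promoter capture experiment (NG Capture-C). Peaks were listed in 6 of these regions in siCTL and in 7 in siFra-1. In all 17 regions siCTL had 15 peaks and siFra-1 10, with a ratio of 0.667 (0.268 to 1.59). The 7 Fra-1-bound regions held 14 and 8 of them, a ratio of 0.571 (0.208 to 1.46), and the 10 others held 1 and 2. Per 100 kb, the Fra-1-bound regions held 19.3 siCTL and 11.0 siFra-1 peaks, the others 1.12 and 2.24, and the 5 loci as a whole 6.45 and 1.86. The Fra-1-bound regions were thus the densest of these sets in both lists, and the intervals of their ratio and of the loci overlapped. Of their peaks, 6 in siCTL and 3 in siFra-1 lay in 1 region of MYO10. Fra-1-bound regions of the other raised genes named below held 26.8 siCTL and 13.4 siFra-1 peaks per 100 kb, and those of the lowered genes 19.2 and 20.8. At 250 bp and over the contacted regions held 2 peaks in each list.

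The Fra-1-bound regions differed from gene to gene. The region around -190.4 kb of MYO10, in an intron of BASP1 (chr5:17118599-17135029), held 6 siCTL peaks covering 850 bp and 3 siFra-1 peaks covering 400 bp. The siCTL peaks were 200, 100, 100, 250, 100 and 100 bp wide, the siFra-1 peaks 150, 100 and 150 bp, and no siCTL peak was overlapped. The widest was the 250 bp siCTL peak at -191.5 kb (chr5:17127752-17128001). The other Fra-1-bound region of MYO10, at -250.4 kb (chr5:17180427-17193117), held 2 siCTL peaks of 100 bp and 1 siFra-1 peak that had the same position as one of them (chr5:17187702-17187801). MYO10 was the gene with the most peaks in contacted regions.

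At ITPRID2 the Fra-1-bound region at -105.3 kb (chr2:182641943-182660316) held siCTL peaks of 100, 200 and 400 bp and 1 siFra-1 peak of 500 bp. The 400 bp peak (chr2:182656002-182656401) lay inside the siFra-1 peak (chr2:182655902-182656401), and both hold the AP-1 motif shown above. The primers that the study used for ChIP-qPCR of Fra-1 at this site match chr2:182655967-182656099, which overlaps both peaks. Covered length in the region was 700 bp in siCTL and 500 bp in siFra-1, so the number of peaks was lower in siFra-1 while the widest peak was wider. At CDCP1 the Fra-1-bound region at -52.0 kb held the 150 bp siCTL and 450 bp siFra-1 pair already described. The other Fra-1-bound region of CDCP1, at 90.6 kb (chr3:45095597-45098957), held no siCTL peak and 2 siFra-1 peaks of 100 bp. At PITPNC1 the Fra-1-bound region at 100.5 kb (chr17:65468558-65479296) held 2 siCTL peaks of 100 bp and no siFra-1 peak, and at SRGAP1 the one at 244.2 kb (chr12:64478878-64484529) held no peak in either list. More siCTL than siFra-1 peaks were therefore listed in the Fra-1-bound regions of 3 genes, and more siFra-1 peaks in those of CDCP1.

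In the 10 regions not given as Fra-1-bound, 3 peaks were listed. They were the 200 bp siFra-1 peak at MYO10, a siFra-1 peak of 100 bp at ITPRID2 in the region at -140.9 kb, and a siCTL peak of 100 bp at SRGAP1 in the region at 409.6 kb. Widths in the contacted regions thus reached 400 bp in siCTL and 500 bp in siFra-1, both at ITPRID2.

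**Figure D5:**
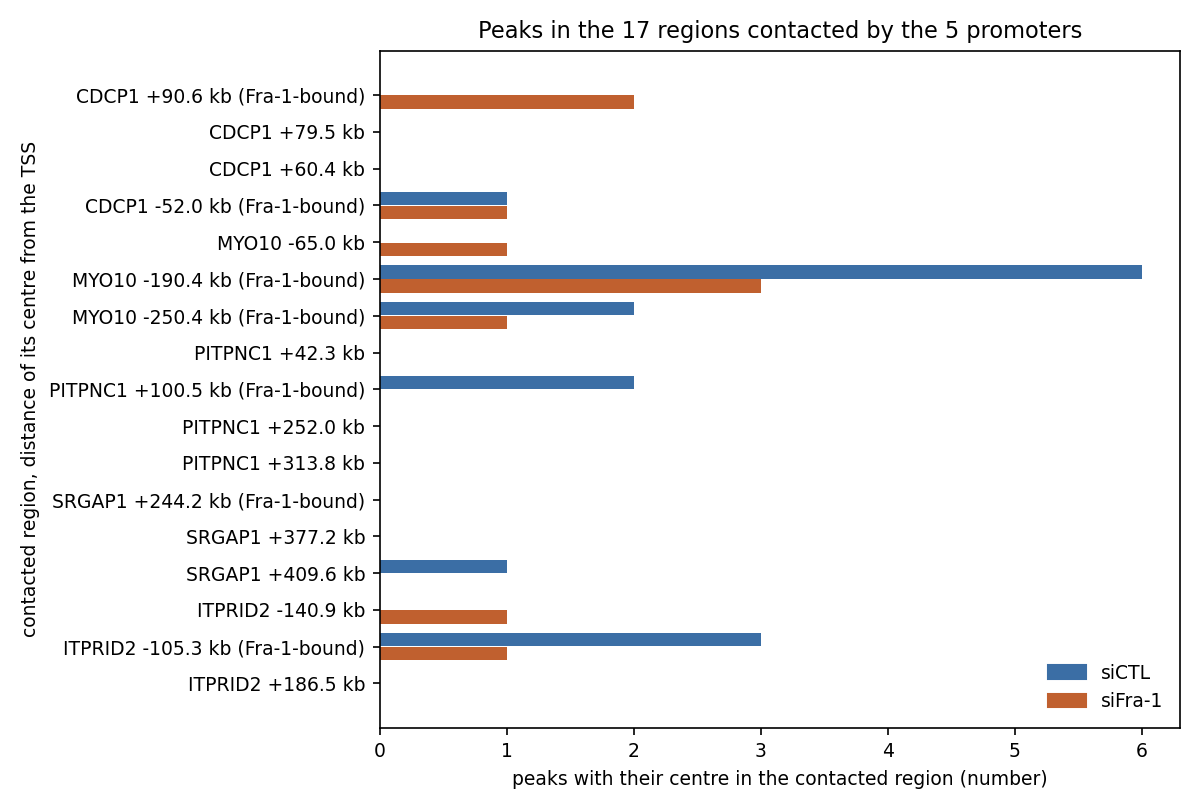
Number of p300/CBP peaks with their centre in each of the 17 regions contacted by the 5 promoters, named by gene and by the distance of the region's centre from the TSS in kb, with blue bars for siCTL and orange bars for siFra-1. The longest bars are the 6 siCTL and 3 siFra-1 peaks of the MYO10 region at -190.4 kb, and 8 of the 17 regions have no bar.

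The other genes that the study gives as raised by Fra-1 with a Fra-1-bound contact are FOSL1, RPSAP52, HK2 and SOX9. Their 4 loci together held 52 peaks in siCTL and 36 in siFra-1, for a ratio of 0.692 (0.440 to 1.08), against 0.288 (0.185 to 0.437) at the 5 genes. At 250 bp and over they held 6 and 16, against 9 and 8. The 11 genes given as lowered by Fra-1 held 220 and 149 peaks, a ratio of 0.677 (0.546 to 0.838). In contacted regions the ratio was 0.900 (0.449 to 1.79) for the 4 other raised genes and 1.09 (0.789 to 1.52) for the lowered genes, against 0.667 (0.268 to 1.59) for the 5 genes, and these intervals overlapped. Without replicates, the difference between the groups of genes at the loci was not tested.

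Other genes of the same families and pathways were counted by the same rule. All 28 had fewer siFra-1 than siCTL peaks, which is the direction at 86.7% of the 19325 protein-coding genes with a peak. They held 399 siCTL and 173 siFra-1 peaks in total, a ratio of 0.434 (0.361 to 0.520). That interval holds the 0.458 summed over all protein-coding genes. The median difference was -8, against -19 for the 5 genes and -4 over all protein-coding genes. Differences in number grow with the number of peaks at a locus, so these medians do not rank the strength of the fall. At 250 bp and over 2 of the 28 had fewer siFra-1 peaks, 16 as many and 10 more, with 10 and 25 peaks in total. Over all protein-coding genes 1516 had fewer at this width and 3374 more, so more wide siFra-1 peaks is also the direction at most genes that differ. By group, Src family kinases and PRKCD, which act with CDCP1, had 39 siCTL and 22 siFra-1 peaks, and filopodial genes such as FSCN1 and VASP, which act with MYO10, had 58 and 21. Slits, Robo receptors and the relatives of SRGAP1 had 163 and 75. Phosphatidylinositol transfer proteins and Golgi partners of PITPNC1 had 79 and 31, and inositol trisphosphate receptors with ITPRID1 had 60 and 24. The largest differences were at ROBO2, a Slit receptor, with 64 siCTL and 36 siFra-1 peaks, at SRGAP3, a paralog of SRGAP1, with 24 and 8, and at SLIT3, a Robo ligand, with 20 and 6. At SRGAP3 no siCTL and 3 siFra-1 peaks were of 250 bp and over, and at ROBO2 there were 1 and 5, so these genes had fewer peaks and more wide ones in siFra-1, as the lists did.

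Likeness of pattern was measured as the smallest summed difference in 4 counts, the siCTL and the siFra-1 peaks at most 100 kb from the TSS, of all widths and of 250 bp and over, among the 15 other genes with a Fra-1-bound contact. Closest was RPSAP52 to SRGAP1, with 9 siCTL and 6 siFra-1 peaks, 1 and 4 of them wide, against 9, 4, 1 and 3, a summed difference of 3. ABTB2 was nearest to MYO10, with 21 and 12 peaks against 21 and 6, and the same numbers of wide ones. SOX9, with 14 and 3 peaks, was nearest to both PITPNC1 (18 and 2) and ITPRID2 (6 and 2), at summed differences of 8 and 10. FOSL1 was nearest to CDCP1 at 17, with 21 and 18 peaks against 33 and 14. Each list is 1 library, so these values describe the counts alone.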

How the data were processed

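The 2 p300/CBP ChIP-seq libraries of MDA-MB-231 cells, siCTL and siFra-1, were used. According to their methods, the authors aligned reads to hg19 with BWA-backtrack (the labels name Bowtie2), built signal in bins of 50 bp with PASHA, scaled it and subtracted background, and pooled replicate immunoprecipitations before library preparation. Peaks were runs of signal above a threshold of 25 in the Integrated Genome Browser, with a gap of 50 bp and a run of 50 bp in both conditions. Another processing parameter named with the lists, of unstated meaning, differed between them. A difference in complexity, enrichment or scaling between the libraries would change peak number and width as occupancy does. The deposited values are peak starts and ends on hg19, with no other column, all 1 bp after a multiple of 50, and printed starts, raised by 1, may be 1 bp off.

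Genes, exons and TSS came from GENCODE release 44 lifted to GRCh37, and all 5 genes and 28 of 28 family genes matched. A peak belonged to a gene when its centre lay in the gene body or within 100 kb of the TSS, and to a contacted region when its centre lay in it. Peaks with 1 bp or more in common counted as overlapping, and a siCTL peak was paired with the siFra-1 peak sharing most bases. Shares have Wilson, differences of shares Newcombe and ratios Clopper-Pearson intervals, in Python 3.11.15 with numpy 2.4.6 and scipy 1.17.1. The functions were tested on simulated data, and plots were drawn with matplotlib 3.10.9. Named are all 5 genes, the widest peak of each list at each gene, peaks with an overlap, of 250 bp and over or in a contacted region, of the family list up to 3 genes with the largest fall and up to 3 with the largest rise, and the nearest gene in pattern. Of sites whose siCTL and siFra-1 peaks both qualified for printing, 1 sequence is shown, and 2 other sites are not reported here by sequence. The genes, lists and rules were chosen with earlier results of these data known.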

Additional observations from a re-analysis of the deposited data

How the results depend on the processing

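Other settings were a minimum width of 150 or 250 bp, other gene windows, merging of peaks within 500 bp, other rules of overlap and pairing, other motif windows, wider contacted regions or the Fra-1-bound ones alone, and leaving out each gene. Of 66 values under these settings, 51 stayed within the counting interval of the value in the report, or within 1.5 times for counts of genes, and 15 did not. At the 5 loci the ratio of peak numbers was 0.288 for all peaks, 0.448 with peaks of at least 150 bp and 0.889 with peaks of at least 250 bp. With both lists cut to these widths, the share of siCTL peaks overlapped by siFra-1 was 31.0% and 44.4%. That of siFra-1 peaks overlapped by siCTL was 61.5% and 50%. At 250 bp these are 4 of 9 and 4 of 8, below the 6 of 9 and 6 of 8 above. The difference arises because partners narrower than 250 bp drop out of a cut list. Shares over the whole lists at these cuts are not given. With peaks of at least 250 bp, 2 of 5 genes had fewer siFra-1 peaks, and with at least 150 bp 10 of 28 family genes had. No share over all protein-coding genes is given at 150 bp, so the 10 of 28 cannot be set against a background. The looser motif TGANTCA was found at 16.3% of siCTL peaks of the loci, against 9.69% of the whole list, and the interval of the difference then no longer held 0. The cause of these differences was not tested. Windows of 50 or 250 kb, the gene body alone or leaving out any 1 gene gave ratios between 0.225 and 0.326. The upper bound passed the 0.474 of the whole lists within 50 kb of the TSS (0.607) and in the gene body alone (0.499). It also did within 100 kb of the TSS alone (0.498), without MYO10 (0.520) and without PITPNC1 (0.505). It stayed below 0.474 within 250 kb (0.396) and without CDCP1 (0.392), SRGAP1 (0.441) or ITPRID2 (0.439). No paired analysis was possible because each condition is 1 library. Leaving out a replicate could not be done for the same reason. Depth is unknown, so peaks just under the threshold cannot be told from absent ones.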
